A study of Mus musculus with 2 samples.

Results

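Abhd5, Prkar2b and Hcar1 are 3 genes that govern how a fat cell releases its stored fat in answer to cyclic AMP (cAMP) and lactate. They were chosen by the authors' fold ratio of the H4-TG array over the WT array, since their deposited table of higher probes lists a row for each, with Hcar1 under its older name Gpr81. They are 3 of the 800 genes that have a name and a value in that table, and each has 1 row. The series holds 1 array of H4-TG transgenic mice and 1 array of wild-type (WT) mice. Each array carried RNA pooled from 4 males about 8 weeks old, kept on chow at room temperature, and the tissue was inguinal white fat, the subcutaneous depot of the groin. The labels expand neither H4 nor the promoter that drives the transgene.

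In the fat cell, catecholamines raise cAMP through receptors coupled to stimulatory G proteins, and cAMP frees the catalytic subunits of protein kinase A (PKA) from their regulatory subunits. PKA then phosphorylates perilipin 1 on the lipid droplet and hormone-sensitive lipase, and perilipin 1 lets go of the co-activator that switches on adipose triglyceride lipase. Lactate, which fat cells make from glucose, acts back on the same cells through a receptor coupled to inhibitory G proteins, which lowers cAMP and restrains fat release. Abhd5 is that co-activator, also called CGI-58, Prkar2b is the regulatory subunit RII-beta, prominent in mouse fat, and Hcar1 is the lactate receptor.

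The authors' table names no genome build. It places the Abhd5 probe on chromosome 9 at 122260734 to 122290641. It places the Prkar2b probe on chromosome 12 at 32643341 to 32746144, and the Hcar1 probe on chromosome 5 at 124326987 to 124330012. PKA also acts on promoters through the factor CREB, which binds the cAMP response element TGACGTCA or its short form TGACG. The 250 bases before the RefSeq start of Abhd5 (build GRCm38.p6, chr9:122351366-122351615, plus strand) and of Hcar1 (chr5:123880004-123880253, minus strand) are shown for that reason, in lower case with any such match on either strand in capitals.
Abhd5: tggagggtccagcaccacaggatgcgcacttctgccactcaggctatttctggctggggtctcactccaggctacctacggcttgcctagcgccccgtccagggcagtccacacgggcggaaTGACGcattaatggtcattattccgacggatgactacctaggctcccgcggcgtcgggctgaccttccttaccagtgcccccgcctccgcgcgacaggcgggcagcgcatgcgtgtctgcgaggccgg
Hcar1: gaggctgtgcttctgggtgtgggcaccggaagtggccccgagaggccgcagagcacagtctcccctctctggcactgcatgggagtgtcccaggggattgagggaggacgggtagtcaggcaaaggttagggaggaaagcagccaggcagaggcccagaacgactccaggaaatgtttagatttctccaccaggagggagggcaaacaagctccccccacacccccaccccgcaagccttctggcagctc

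Abhd5 held 1 TGACG, 124 bases before the first transcribed base, and Hcar1 held none. RefSeq gives 2 starts for Prkar2b, both inside the gene's own span, so no stretch is printed for it. Neither window of Prkar2b held TGACG. The short form occurs in 17.8% of all 32851 such windows and in at least 1 window of 19.8% of genes, so its presence before Abhd5 is a common one. The whole element TGACGTCA, which contains the short form and occurs in 1.55% of windows, was in no window of the 3 genes. Neither was the direct repeat bound by the fat cell factor PPAR-gamma with its partner RXR, which occurs in 0.0335% of windows. The windows were rich in G and C, at 64.8% for Abhd5, 62.4% for Hcar1, and 75.6% and 69.6% for Prkar2b, against a median of 52.4% over all windows.

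All 3 genes were higher on the H4-TG array, by about 1.5-fold to 1.7-fold, and all lay far above the middle of both arrays. Being listed at 1.5-fold or more is what chose them, and with 1 array per genotype there is no spread between replicates, so the differences are given as a description with no test. The signals are log2 values as deposited, and each difference is H4-TG minus WT. Since bulk fat was measured, more fat cells with the same RNA and more RNA per fat cell cannot be told apart.

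Abhd5, the lipase co-activator, acts furthest along the pathway. In humans, loss of this gene causes neutral lipid storage disease with ichthyosis, in which fat droplets fill many tissues. Its log2 signal was 9.89 on the H4-TG array and 9.09 on the WT array. The difference of 0.80 corresponds to 1.74-fold, or 74.4% more signal. It was the largest difference of the 3, at rank 265 of the 869 rows of the authors' table and 595 of the 35556 probes of the array. On the H4-TG array the probe was brighter than 94.8% of all probes, with 1858 above it. On the WT array it was brighter than 89.1%, with 3867 above it. Skeletal muscle also expresses Abhd5. Of 30 muscle markers, 28 were listed as higher in H4-TG, against 3.34% of RefSeq protein-coding genes. The markers were chosen with earlier results of these data known, so this count is a description and no test. The median log2 difference of the 28 was 2.15. The part of muscle RNA in the difference of Abhd5 was not tested.

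Prkar2b, the regulatory subunit, keeps the kinase silent until cAMP binds. In mice, loss of this subunit is known to give lean animals with altered lipolysis. Its log2 signal was 11.30 on the H4-TG array and 10.71 on the WT array. The difference of 0.59 corresponds to 1.51-fold and was the smallest of the 3. The probe stood among the brightest of both arrays, above 98.4% of probes on the H4-TG array and 97.2% on the WT array. Only 555 probes were brighter on the H4-TG array, and 1000 on the WT array. Among the 800 named genes its signal ranked 4 on the H4-TG array and 3 on the WT array.

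Of the 3 genes, Prkar2b was also the closest to the lower end of the authors' table. It exceeded 1.5-fold by 0.0077 on the log2 scale, and only 57 of the 869 rows (6.56%) had a smaller difference. The probe just inside 1.5-fold on the whole array had a fold of 1.50004 and the probe just outside 1.49931. The lowest row of the authors' table had a fold of 1.49531 in the value table, a log2 difference of 0.58, so the list reaches slightly below exact 1.5-fold and Prkar2b lies a little above its lower end.

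Hcar1, the lactate receptor, is expressed mainly in fat cells. Its log2 signal was 9.39 on the H4-TG array and 8.72 on the WT array. The difference of 0.67 corresponds to 1.59-fold, at rank 536 of the 869 rows of the authors' table and 1033 of all probes. The probe was brighter than 92.0% of probes on the H4-TG array and 85.6% on the WT array. Hcar1 ended closer to the top of the H4-TG array, with 2846 probes above it, than of the WT array, with 5132 above it. Its choice at 1.5-fold made that direction likely in advance.

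**Figure D1:**
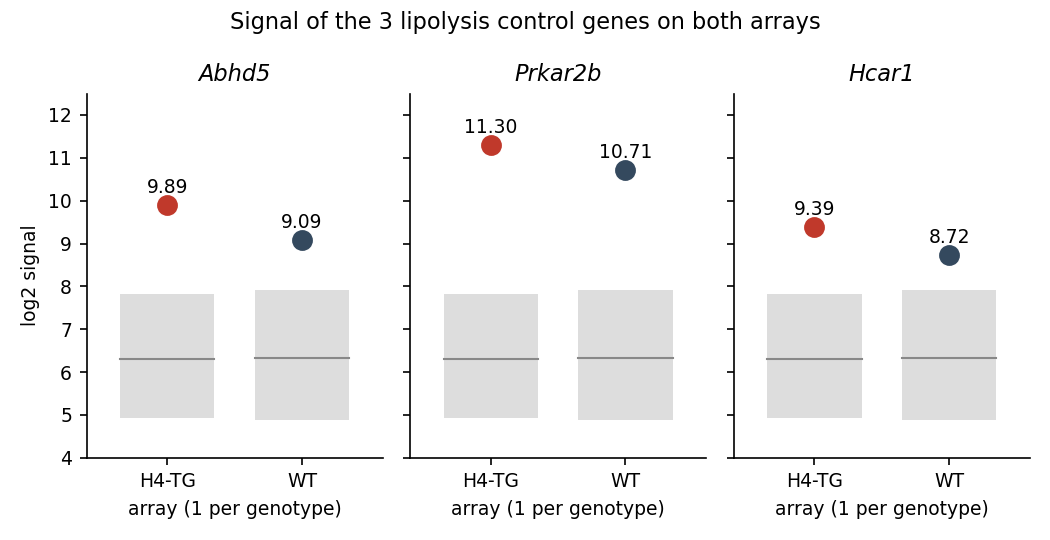
Log2 signal (vertical axis) of Abhd5, Prkar2b and Hcar1 on the H4-TG array and the WT array, 1 point per array, so there are no error bars. Grey boxes span the quartiles of all 35556 probes of each array with their median as a line, and each gene lies above the box on both arrays, with the H4-TG point 0.59 to 0.80 above the WT point.

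How often a probe was higher varied with its brightness. The 3 genes were all past 1.5-fold, as their choice required, against 4.27% of all probes (1518 of 35556). More probes, 2690 (7.57%), were lower in H4-TG by that factor or more. The share of higher probes was 7.40% at a mean log2 signal of 3 to 4, where many probes are dim. It was 1.71% at 9 to 10, where Abhd5 and Hcar1 lie, and 1.84% at 11 to 12, where Prkar2b lies.

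Probes as bright as these were, on the whole, slightly lower in H4-TG. The median difference was -0.08 over the 2224 probes at 9 to 10, with quartiles of -0.28 and 0.10. Abhd5 had the difference ranked 13 of these 2224, and Hcar1 ranked 22. The median was -0.16 over the 489 probes at 11 to 12, with quartiles of -0.34 and 0.08, and Prkar2b ranked 9 of them. The choice of the genes at 1.5-fold limited these ranks in advance. Past 1.5-fold were 38 probes at 9 to 10 and 9 probes at 11 to 12. Measured from the median of probes of like brightness, the difference was 0.88 for Abhd5, 0.76 for Prkar2b and 0.75 for Hcar1. The value for Prkar2b depends on where the groups are cut. Its mean signal was 11.002, and the median difference at 10 to 11 was -0.097. Lowess centring along the signal, which makes no such cuts, gave 0.70 for Prkar2b and 0.76 for Hcar1.

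**Figure D2:**
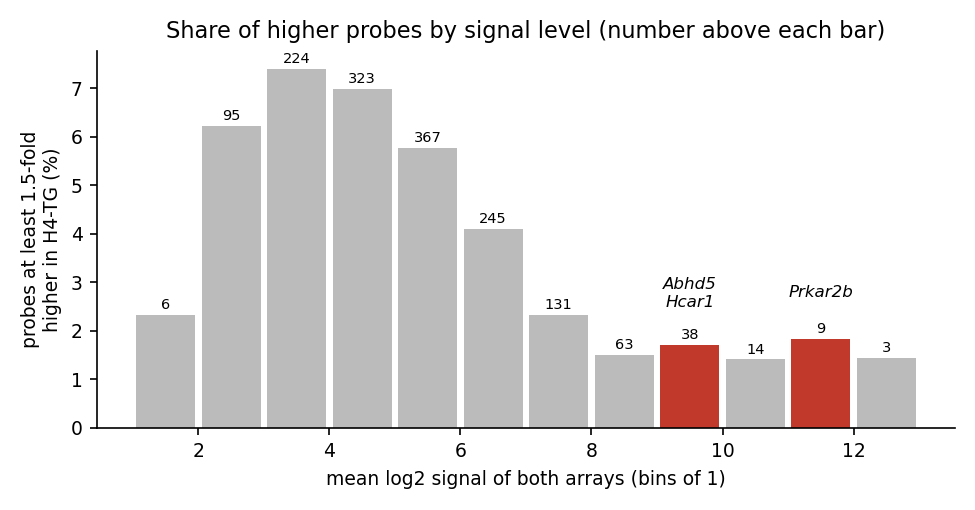
Share of probes at least 1.5-fold higher in H4-TG (vertical axis, percent) in bins of 1 log2 unit of mean signal (horizontal axis), with the number of such probes above each bar. The bars in red are the bins of the 3 genes, at 1.71% and 1.84%, against 7.40% at a mean signal of 3 to 4.

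Scaling the arrays differently moved all 3 differences upward together. The scalings were the deposited one, centring on the median, lowess centring along the signal and quantile normalization, and over these the difference of Abhd5 ranged from 0.80 to 0.89. That range was 0.59 to 0.70 for Prkar2b and 0.67 to 0.76 for Hcar1. Each gene was at least 1.5-fold higher under all 4 scalings, and the lowest value of each was the deposited one. The order Abhd5, Hcar1, Prkar2b held under each of the 4. Median centring shifts every probe by the same amount, so it could not have changed this order.

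**Figure D3:**
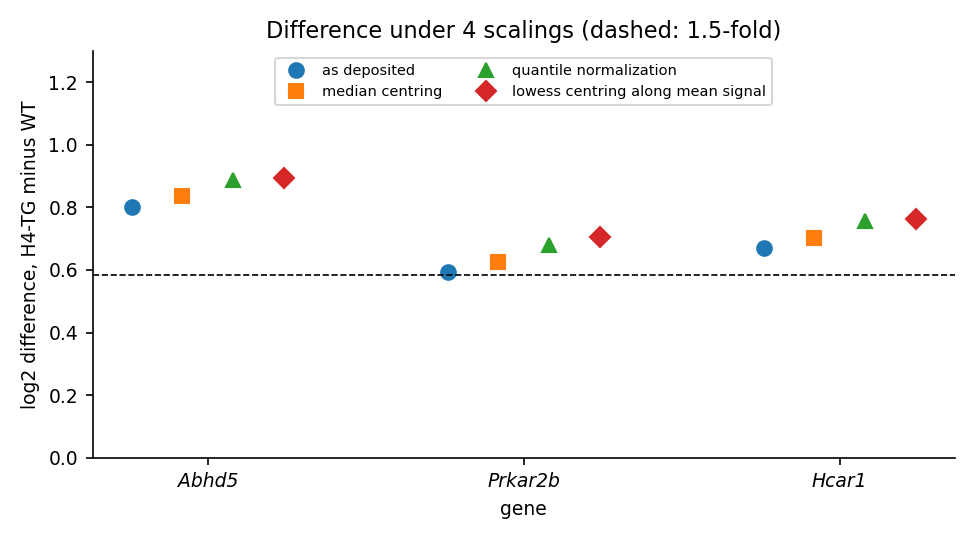
Log2 difference, H4-TG minus WT (vertical axis), of the 3 genes under the deposited values and 3 other scalings of the same pair of arrays, 1 symbol per scaling. The symbols stay at or above the dashed line of 1.5-fold, Prkar2b by 0.0077 as deposited.

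The rest of the pathway was read from 8 lists with 143 distinct genes, of which the authors' table names 14. Leaving out Abhd5, Prkar2b and Hcar1, it names 11 of 140 (7.86%), against 3.34% of RefSeq protein-coding genes (732 of 21896). Genes outside the table have no value here, and they include genes that may not be on the array. Several of the 11, Ucp1, Irs1 and Pdk4 among them, were known to be listed when the lists were drawn up. So neither the total count nor those per list below are a sign that the pathway or a part of it stands apart. The differences of the 11 ran from 0.61 to 1.38 with a median of 0.73, beside a median of 0.71 over the 800 named genes. Only Ucp1, Pkia and Fosb exceeded the difference of Abhd5.

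Of 17 anti-lipolytic receptors and G proteins, 3 were listed, against 3.34% of RefSeq protein-coding genes. Hcar1 is 1 of them because being listed is what chose it, and the others were Hcar2 and Ptger3. Hcar2, the receptor for niacin and the ketone body beta-hydroxybutyrate, has a sequence related to that of Hcar1, and it was 8.58 in H4-TG and 7.89 in WT (1.61-fold). Its probe lies 11481 bases from that of Hcar1 in the authors' table, at 124313586 to 124315505, and RefSeq starts no other gene between the starts of this pair. The differences of these neighbours, 0.69 and 0.67, were close to each other. Whether either probe also reads RNA of its neighbour was not tested. Ptger3, a prostaglandin E2 receptor that lowers cAMP, was 7.73 in H4-TG and 7.07 in WT (1.59-fold).

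On the stimulatory side 1 of 15 receptors and G proteins was listed, against 3.34% of RefSeq protein-coding genes. With so few listed, and Hcar1 chosen for being listed, the counts of the stimulatory and anti-lipolytic sides cannot be compared. The listed stimulatory gene was Mc5r, a melanocortin receptor that raises cAMP, at 7.01 in H4-TG and 6.28 in WT (1.66-fold). None of the 18 adenylyl cyclases and phosphodiesterases was listed, so the enzymes that make and break down cAMP have no value either. Of the insulin arm, which lowers cAMP in fat cells, 1 of 10 was listed, the receptor substrate Irs1, at 9.45 in H4-TG and 8.84 in WT (1.53-fold).

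Among PKA subunits, inhibitors and anchors, 2 of 21 were listed, against 3.34% of RefSeq protein-coding genes. These were Prkar2b, which was chosen for being listed, and Pkia. Pkia is the heat-stable peptide that blocks the catalytic subunit, and it is abundant in skeletal muscle. It was 7.23 in H4-TG and 6.12 in WT, or 2.16-fold higher. The listed pair is a regulatory subunit and an inhibitor of the kinase, and whether the activity of the kinase differed was not tested. The catalytic subunits Prkaca and Prkacb and the regulatory subunits Prkar1a, Prkar1b and Prkar2a were not listed and have no value.

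Of the lipolysis machinery, 2 of 20 were listed, against 3.34% of RefSeq protein-coding genes. These were Abhd5, which was chosen for being listed, and the carboxylesterase Ces1f. The signal of Ces1f was 10.64 in H4-TG and 9.91 in WT (1.65-fold). Ces1f belongs to a cluster of similar genes, and a probe may not separate them. The lipases Pnpla2, Lipe and Mgll, the droplet coat Plin1 and the inhibitor G0s2 were not listed, so the partners of Abhd5 have no value here. Lactate production and transport had 2 of 20 listed. The lactate exporter Slc16a3, which fast muscle also uses, was 6.82 in H4-TG and 6.16 in WT (1.58-fold). Pdk4, a kinase of pyruvate dehydrogenase, was 10.86 in H4-TG and 10.08 in WT (1.71-fold).

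Among cAMP and CREB target genes, 3 of 24 were listed, against 3.34% of RefSeq protein-coding genes. The uncoupling protein Ucp1 was 8.35 in H4-TG and 6.97 in WT (2.60-fold). The immediate early gene Fosb was 7.26 in H4-TG and 6.37 in WT (1.84-fold), and Egr2, another, was 7.40 in H4-TG and 6.77 in WT (1.55-fold). Of the 14 listed pathway genes, 10 had a promoter window, and 6 of these held TGACG: Abhd5, Egr2, Fosb, Irs1, Slc16a3 and Ucp1. The share over all genes was 19.8%, but Egr2 has 5 windows, and 3 of the 10 genes were placed on the lists because CREB is known to drive them. None of the 10 held TGACGTCA.

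**Figure D4:**
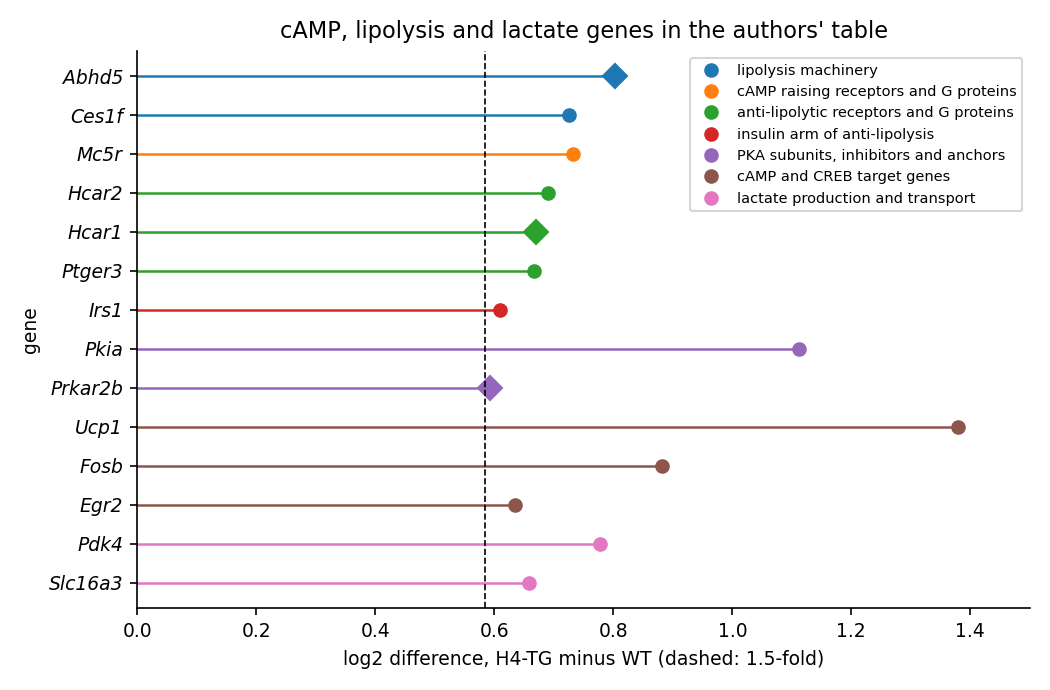
Log2 difference, H4-TG minus WT (horizontal axis), of the 14 genes of the cAMP, lipolysis and lactate lists that the authors' table names, coloured by list, with diamonds for Abhd5, Prkar2b and Hcar1. The dashed line is 1.5-fold, the lower limit of the table's rounded folds, and the longest lines are those of Ucp1 (1.38) and Pkia (1.11).

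Of 20 fat cell markers only 1, angiotensinogen (Agt, 7.67 in H4-TG and 6.95 in WT), was listed. The others, Adipoq among them, have no value, so this list gives little check of the labelled tissue. Of 30 skeletal muscle markers, 28 were listed, against 3.34% of RefSeq protein-coding genes (732 of 21896). The marker lists were chosen with earlier results of these data known, so their counts are a description and no test. Being listed fixed the direction of the 28 in advance, and the same holds for the 3 genes. The 28 had a median difference of 2.15 and a range of 0.66 to 3.35. Their signals ran from 6.01 to 11.53 in H4-TG and from 5.00 to 9.76 in WT, and their summed linear signal was 22994 in H4-TG and 4293 in WT. The markers not listed were Car3 and Tnnt1. Muscle expresses Abhd5 as well as Pkia, Pdk4 and Slc16a3, and the part of muscle RNA in their differences was not tested. Of 14 brown and beige fat cell markers 4 were listed (0.72 to 1.38), and of 10 macrophage markers 4 (0.75 to 0.96), and their part was not tested.

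**Figure D5:**
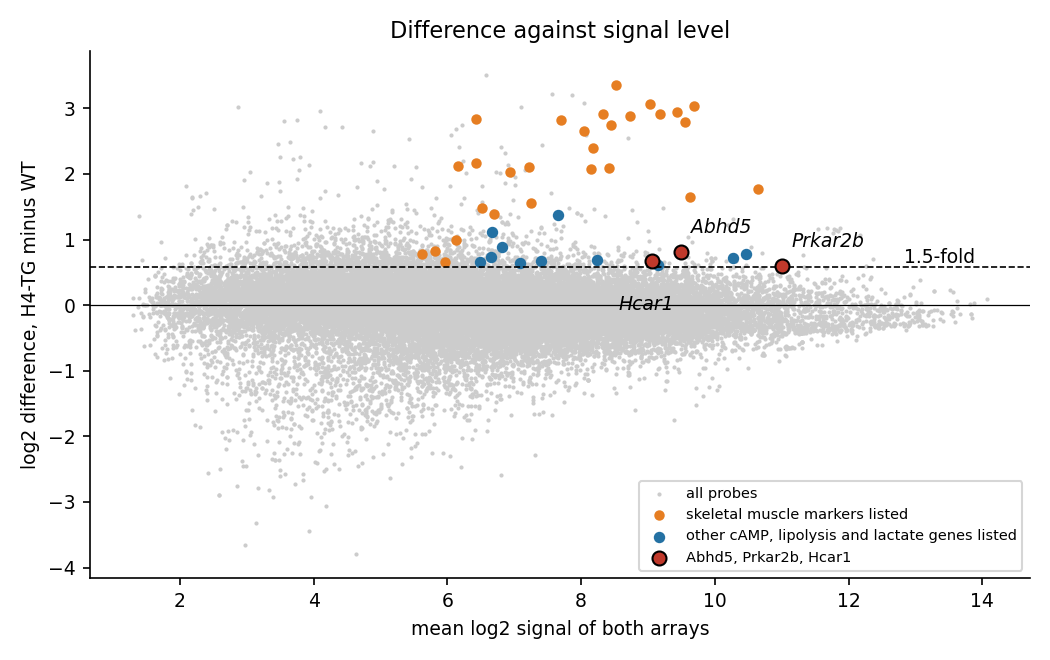
Log2 difference, H4-TG minus WT (vertical axis), against mean log2 signal (horizontal axis) for all 35556 probes in grey. Abhd5, Prkar2b and Hcar1 (red) lie at the bright end, 0.59 to 0.80 above 0, among other listed pathway genes (blue) and below most of the 28 listed skeletal muscle markers (orange).

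The 3 named genes whose pair of signals lay nearest to each gene were found by distance in the plane of both arrays. For Abhd5 they were Tspan12 (distance 0.15 log2 units), Cyp2f2 (0.16) and Igfbp5 (0.17). For Hcar1 they were Serpinf1 (0.06), Acad11 (0.06) and Reep6 (0.08). Prkar2b had no close neighbour among the named genes, and the nearest were Cox8b (0.44), Gpx8 (0.74) and Pdk4 (0.76), each with a larger difference and a lower signal on both arrays. With 2 arrays, likeness here means a similar brightness and a similar fold, and nothing further.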

How the data were processed

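Per the labels, each genotype gave 1 biotin-labelled mouse gene array of pooled RNA. The deposited value table holds log2 signals. The submitters' processing notes name MAS5 but no settings or scaling. The authors' deposited table gives rounded log2 signals and the ratio of H4TG to CON, per the file headers. Its 869 rows lay within 0.005 of the value table on both arrays. Symbols were updated through RefSeq (746 rows by accession, 46 by symbol, 10 by synonym, 20 unmatched). The 47 rows with several symbols named no gene, and a gene's brightest probe stood for it. The members and lists were chosen with earlier results of these data known. Named were the 3 genes, every listed pathway gene, marker groups and the 3 nearest genes. Motifs were sought on both strands. Median, quantile and lowess (span 0.3) scaling was checked on simulated data. The simulated shift between arrays was the same at every signal level, so a shift that varies with signal was not covered. The work used Python 3.11.15, pandas 2.3.3 and statsmodels 0.14.6. The low number of arrays limits precision.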

Additional observations from a re-analysis of the deposited data

How the results depend on the processing

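No paired analysis was possible because there is 1 array on each side, and for that reason no array was left out. Differences of the 3 genes moved by at most 0.1 log2 units under median centring, quantile normalization, the authors' rounded table and rows with several symbols, and under centring along signal level only Prkar2b moved further, to 0.704. Difference ranks follow the set ranked. Among probes at or above the median mean signal they were 171 for Abhd5, 393 for Prkar2b and 283 for Hcar1. Without the 6622 lowest identifiers, which carry no name in the files, they were 334 for Abhd5, 1015 for Prkar2b and 666 for Hcar1. Within bins of like signal, chosen after seeing the data, they were 13, 9 and 22 for Abhd5, Prkar2b and Hcar1. The choice of the genes at 1.5-fold limited all these ranks in advance. The share of probes at least 1.5-fold higher was 2.31% above the median signal. Signal percentiles moved by under 1 point, and counting rows with several symbols added no pathway gene to the 14.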
